A study of Mus musculus with 6 samples.

Results

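Inhibitory checkpoint genes and Icos were examined in splenic CD4+ T cells from mice with EAE (experimental autoimmune encephalomyelitis), in which T cells primed against myelin attack the brain and spinal cord. The set holds 9 genes of the 54532 in the count table, taken by gene name: Ctla4, Icos, Pdcd1, Btla, Tigit, Havcr2, Lag3, Cd160 and Cd200. The libraries came from 3 Ogt-KD mice, genotype Ogtfl/wt CD4-Cre, and 3 control mice labelled wild type. All were C57BL/6 and in the acute phase of the disease, and the labels give no age or sex. Ogt encodes O-GlcNAc transferase, which attaches N-acetylglucosamine to nuclear and cytoplasmic proteins. The Ogt-KD genotype joins 1 floxed and 1 wild-type allele of this X-linked gene with a Cre recombinase under Cd4 regulatory sequence, which acts in T cells. The control label names neither Cre nor a floxed allele, so an effect of the Cre itself cannot be told apart from one of Ogt. The comparison asks how the checkpoint genes of these T cells differed between the genotypes during the disease.

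Checkpoint receptors are surface proteins that restrain T cells after antigen has been recognised. Most are made after activation, and they act by binding ligands on antigen-presenting or tissue cells, by recruiting phosphatases, or by taking ligands away from activating receptors. CTLA-4, PD-1, BTLA and the activating receptor ICOS belong to the CD28 family. TIGIT, TIM-3 (Havcr2), LAG-3 and CD160 are further receptors of the immunoglobulin superfamily, and CD200 is a ligand that signals to the CD200 receptor on myeloid and other cells. Several of these genes are abundant in regulatory T cells (Ctla4, Icos, Tigit) or in follicular helper T cells (Pdcd1, Icos, Btla, Cd200). Havcr2 is also made by dendritic cells, Btla and Cd200 by B cells, and Cd160 by natural killer and CD8+ T cells.

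The genes lie on 5 chromosomes (GRCm38). Ctla4 (ENSMUSG00000026011, chr1:60887000-60915832, plus strand), Icos (ENSMUSG00000026009, chr1:60977927-61000320, plus) and Pdcd1 (ENSMUSG00000026285, chr1:94038305-94052553, minus) are on chromosome 1. Tigit (ENSMUSG00000071552, chr16:43648867-43664146, minus), Btla (ENSMUSG00000052013, chr16:45224315-45257670, plus) and Cd200 (ENSMUSG00000022661, chr16:45382135-45409053, minus) are on chromosome 16. Havcr2 (ENSMUSG00000020399, chr11:46454935-46481255, plus), Lag3 (ENSMUSG00000030124, chr6:124904361-124911705, minus) and Cd160 (ENSMUSG00000038304, chr3:96798763-96829351, minus) lie apart.

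Total counts ran from 18969803 to 25683453 in Ogt-KD libraries and from 18127031 to 24917282 in control libraries. Levels are normalised read counts in CPM, scaled by library size and edgeR's TMM factor, and each log2 fold change divides Ogt-KD by control. Ogt itself had 661.9, 598.8 and 458.6 CPM in Ogt-KD replicates 1, 2 and 3, against 599.2, 627.9 and 562.4 CPM in the controls (log2 fold change -0.06, SE 0.15, edgeR adjusted p = 0.981), so the counts did not show a lower level in the libraries labelled Ogt-KD. The labels do not give which exons the floxed allele loses, and gene-level counts include reads outside them. The T cell markers Cd3d, Cd3e, Cd3g and Cd4 were abundant in every library, and Cd4 lay between 738.5 and 902.7 CPM in Ogt-KD libraries and between 762.3 and 856.2 CPM in controls. Replicate 3 of both groups stood apart in macrophage and monocyte markers, as given beside the results it touches. In bulk RNA, fewer cells of a type and less RNA per cell cannot be told apart.

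No checkpoint gene passed the test between the groups. All 9 were expressed above the filter on low counts, and 0 of 9 had an edgeR adjusted p under 0.05 over the 16075 genes tested, where 0.00622% of all genes did. By DESeq2 and by limma-voom the count was also 0 of 9, against 0.39% and 0.00622% of all genes. At an unadjusted p under 0.05 there were 2 of 9, Havcr2 and Pdcd1, both higher in Ogt-KD libraries, beside 7.52% of all genes (5.04% higher and 2.48% lower, or 810 and 399 genes, against 881 and 172 when scaled by the Cd3 genes). With the replicate number as a block, 0 of 9 passed, beside 0.292% of all genes, and 3 of 9 had an unadjusted p under 0.05, all higher, beside 7.55% of all genes higher. The third was Ctla4. The log2 fold change lay above 0 for 8 of the 9, with a median of 0.26, while 49.0% of all tested genes lay above 0 and their median was -0.005. The 9 genes share the same 6 libraries and were not independent of each other. Without replicate 3 of both groups 5 of 9 lay above 0, with a median of 0.13. Without Ogt-KD replicate 3 alone it was 5 of 9 with a median of 0.09. Without control replicate 1 it was 5 of 9 with a median of 0.13, and 0 of 9 had an unadjusted p under 0.05. At that p, only Pdcd1 remained without Ogt-KD replicate 2 or without control replicate 3. Ctla4 and Havcr2 were under it without Ogt-KD replicate 1. Havcr2 and Pdcd1 both remained without Ogt-KD replicate 3 or without control replicate 2.

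**Figure D1:**
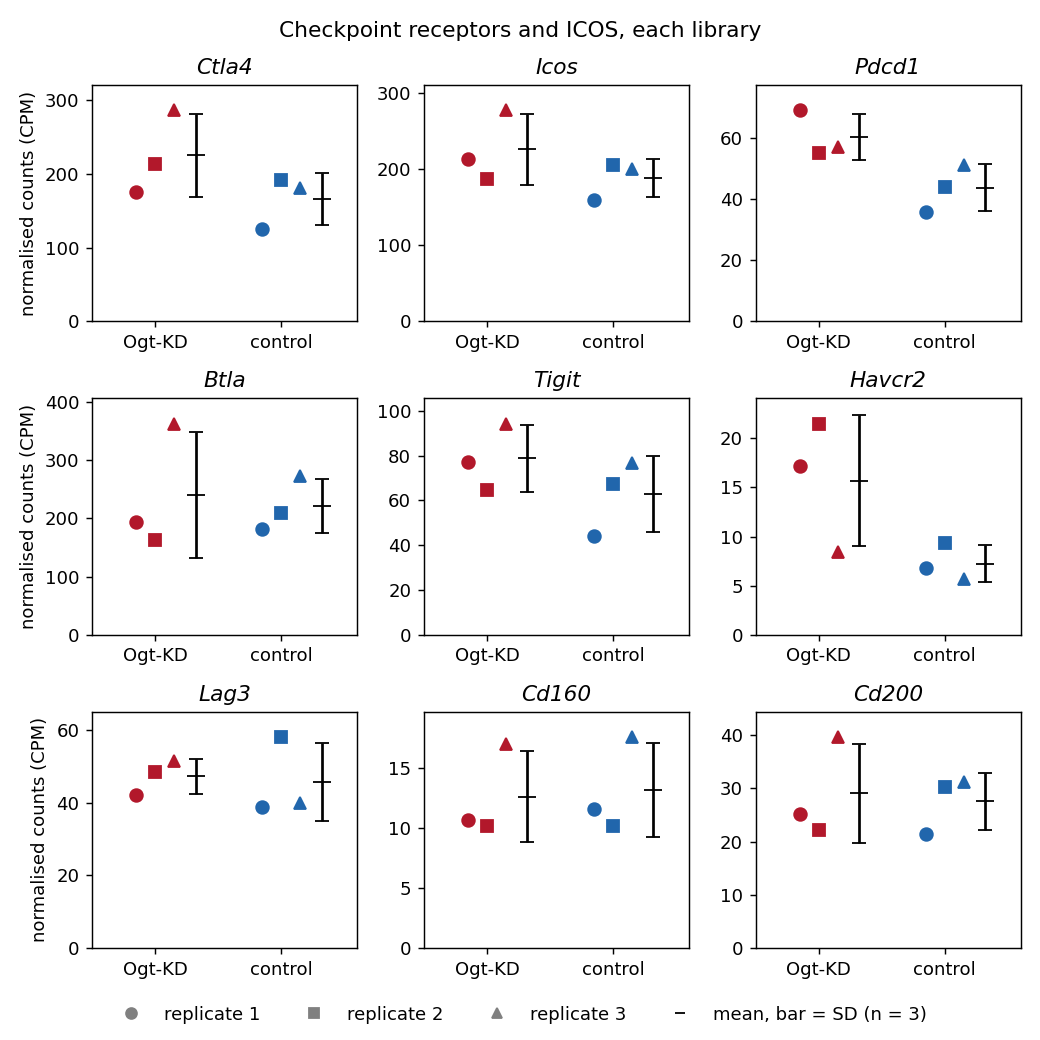
Normalised counts (CPM, linear axes from 0) of the 9 genes in each library, Ogt-KD in red and control in blue, with the marker shape giving the replicate number and the black bar the mean and SD of 3 libraries. The Ogt-KD points of Pdcd1 all lie above its control points, while the groups overlap for the other 8 genes.

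Pdcd1, which encodes the receptor PD-1, had 69.1, 55.0 and 57.0 CPM in Ogt-KD replicates 1, 2 and 3, against 35.9, 44.1 and 51.3 CPM in control replicates 1, 2 and 3. Every Ogt-KD library was above every control library, though the lowest Ogt-KD and the highest control value were close. It was the 1 gene of the 9 whose groups did not overlap, beside 13.3% of all tested genes (7.43% higher and 5.88% lower). Over all genes this split depended on the scaling: 1195 were higher and 945 lower with TMM, 1280 and 490 when scaled by the Cd3 genes, and 1561 and 547 by total count. The means were 60.4 ± 7.64 CPM in Ogt-KD and 43.8 ± 7.69 CPM in control libraries (SD, n = 3 each). This is 0.46 on the log2 scale (SE 0.15), with 95% limits of 0.10 and 0.83 and an edgeR adjusted p of 0.583. Cell cycle genes were higher in the same libraries: their summed level was 861.1, 827.2 and 621.6 CPM in Ogt-KD and 319.6, 486.7 and 503.2 CPM in control replicates, 8 of 8 lay above 0, and 0 passed over all genes. Their part in the difference of Pdcd1 was not tested.

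Havcr2, which encodes the inhibitory receptor TIM-3, had the highest fold change of the 9. It stood at 17.2, 21.5 and 8.39 CPM in Ogt-KD replicates 1, 2 and 3, against 6.76, 9.30 and 5.69 CPM in the controls. Ogt-KD replicates 1 and 2 lay above all controls, and Ogt-KD replicate 3 lay below control replicate 2. These values rest on 351, 424 and 210 reads in Ogt-KD and 148, 231 and 101 reads in control libraries. The means were 15.7 ± 6.68 and 7.25 ± 1.86 CPM in Ogt-KD and control libraries (SD, n = 3 each), a fold of 2.15 with 95% limits of 1.195 and 3.88 (log2 fold change 1.11, SE 0.36, edgeR adjusted p = 0.583). The same libraries were high in dendritic cell markers. The summed level of the 10 listed markers was 1655, 2366 and 845.5 CPM in Ogt-KD replicates 1, 2 and 3, against 995.5, 1020 and 471.0 CPM in the controls. The MHC class II presentation genes Cd74, H2-Ab1 and H2-Eb1 made up most of this sum, with 692.7, 430.1 and 389.8 CPM in Ogt-KD replicate 1. All 10 were above 0 (median 1.10 on the log2 scale), none was at 0 counts in all libraries, and none passed, while Zbtb46, Itgax, H2-Ab1 and H2-Eb1 passed with the replicate number as a block. Among these, Zbtb46, a transcription factor of conventional dendritic cells, had 14.1, 22.9 and 4.995 CPM in Ogt-KD and 5.94, 7.09 and 2.37 CPM in control replicates. Their part in the difference of Havcr2 was not tested.

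The promoter sequences of Pdcd1 and Havcr2 are given because these 2 genes had the smallest p values of the set. Each run is the 250 bases before the RefSeq transcription start on GRCm38.p6, 5′ to 3′ on the gene's strand. Pdcd1 lies on the minus strand at chr1:94052554-94052803 and Havcr2 on the plus strand at chr11:46454681-46454930. Capitals mark matches, on either strand, to GGAAA, the core bound by NFAT factors and shared with many ETS sites, or to TGANTCA, the AP-1 site. A GGAAA on the opposite strand reads TTTCC here.
Pdcd1: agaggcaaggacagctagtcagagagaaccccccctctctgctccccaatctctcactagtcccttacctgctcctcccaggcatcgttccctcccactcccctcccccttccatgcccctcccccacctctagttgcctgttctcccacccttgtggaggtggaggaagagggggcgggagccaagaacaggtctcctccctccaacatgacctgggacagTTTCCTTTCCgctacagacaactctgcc
Havcr2: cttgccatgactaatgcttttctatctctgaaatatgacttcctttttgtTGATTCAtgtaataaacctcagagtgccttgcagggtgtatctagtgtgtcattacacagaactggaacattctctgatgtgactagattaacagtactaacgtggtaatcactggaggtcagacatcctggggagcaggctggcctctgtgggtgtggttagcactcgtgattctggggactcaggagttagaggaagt
The Pdcd1 window held GGAAA on the opposite strand at 2 places, which begin 28 and 23 bases before the start, and the Havcr2 window held the AP-1 letters once, 200 bases before it. Of the 7 members with an entry in the promoter table, 3 held GGAAA (Pdcd1, Ctla4 and Tigit), and so did 55.6% of all 32851 promoter windows of this length. The AP-1 letters were in 1 of the 7, Havcr2, and in 6.75% of all windows. No match to 1 motif overlapped a match to the other in these windows. A match describes the letters of the window and shows no binding.

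Ctla4 and Icos lie next to each other on chromosome 1 with opposite roles. CTLA-4 removes and blocks the ligands of CD28, and ICOS costimulates effector, follicular helper and regulatory T cells. Ctla4 had 176.1, 214.3 and 286.7 CPM in Ogt-KD replicates 1, 2 and 3, against 125.8, 191.8 and 180.8 CPM in the controls. The highest values were those of Ogt-KD replicates 3 and 2, and Ogt-KD replicate 1 lay below control replicates 2 and 3. The means were 225.7 ± 56.2 and 166.1 ± 35.3 CPM in Ogt-KD and control libraries (SD, n = 3 each), or 0.44 on the log2 scale (SE 0.22, 95% limits -0.08 and 0.96, edgeR adjusted p = 0.702). Icos had 213.4, 186.6 and 276.8 CPM in Ogt-KD replicates, against 159.2, 204.9 and 200.5 CPM in control replicates. Ogt-KD replicates 3 and 1 were the highest and control replicate 1 the lowest, and the groups overlapped. Its log2 fold change was 0.26 (SE 0.17, 95% limits -0.14 and 0.66, edgeR adjusted p = 0.815).

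Tigit encodes a receptor that competes with the activating receptor CD226 for the ligand encoded by Pvr. Tigit had 77.2, 64.8 and 94.3 CPM in Ogt-KD replicates 1, 2 and 3, against 43.9, 67.3 and 76.9 CPM in the controls. Control replicate 1 was the lowest library, and Ogt-KD replicate 2 lay below control replicates 2 and 3. The log2 fold change was 0.33 (SE 0.23, 95% limits -0.20 and 0.86, edgeR adjusted p = 0.830). Ctla4, Icos and Tigit are all abundant in regulatory T cells, whose 6 listed markers summed to 557.8, 703.1 and 587.7 CPM in Ogt-KD and 366.6, 485.7 and 371.0 CPM in control replicates. All 6 were above 0 (median 0.59 on the log2 scale) and 0 passed, against Foxp3 and Ikzf2 with the replicate block. Their part in these differences was not tested, but the ratio to Foxp3, the lineage factor of these cells, was measured in each library.

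Foxp3 itself was higher by 0.70 on the log2 scale, so a lower ratio to it was the rule over all genes. Relative to Foxp3, 8 of the 9 genes had a lower mean log2 ratio in Ogt-KD libraries, beside 94.4% of all tested genes, whose median was -0.71. The log2 ratio of Ctla4 to Foxp3 was 0.77, 0.67 and 1.76 in Ogt-KD replicates 1, 2 and 3, against 1.13, 1.17 and 1.69 in the controls (difference of means -0.26). That of Icos differed by -0.45 and that of Tigit by -0.35, and the groups overlapped for all 3. The log2 ratio of Lag3 to Foxp3 was -1.29, -1.48 and -0.72 in Ogt-KD and -0.57, -0.55 and -0.48 in control replicates, lower in every Ogt-KD library, as were the ratios of 36.4% of all tested genes. The exact two-sided permutation test gave p = 0.10 for it, the smallest that 3 against 3 libraries allow, and 0.514 adjusted over the 9 genes. Havcr2 had the 1 ratio to Foxp3 that was higher, by 0.34. Relative to Cd3d, Cd3e and Cd3g, the T cell receptor complex, 9 of 9 mean log2 ratios were higher in Ogt-KD libraries, from 0.003 for Cd160 to 1.10 for Havcr2, beside 60.5% of all tested genes with a median of 0.05. With Trac, Cd2 and Cd5 in their place it was 8 of 9, beside 52.2% of all tested genes. Only the ratio of Pdcd1 had groups that did not overlap, beside 7.96% of all tested genes that were higher in this way, at a difference of 0.53 (exact permutation p = 0.10, 0.45 adjusted over the 9 genes).

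**Figure D2:**
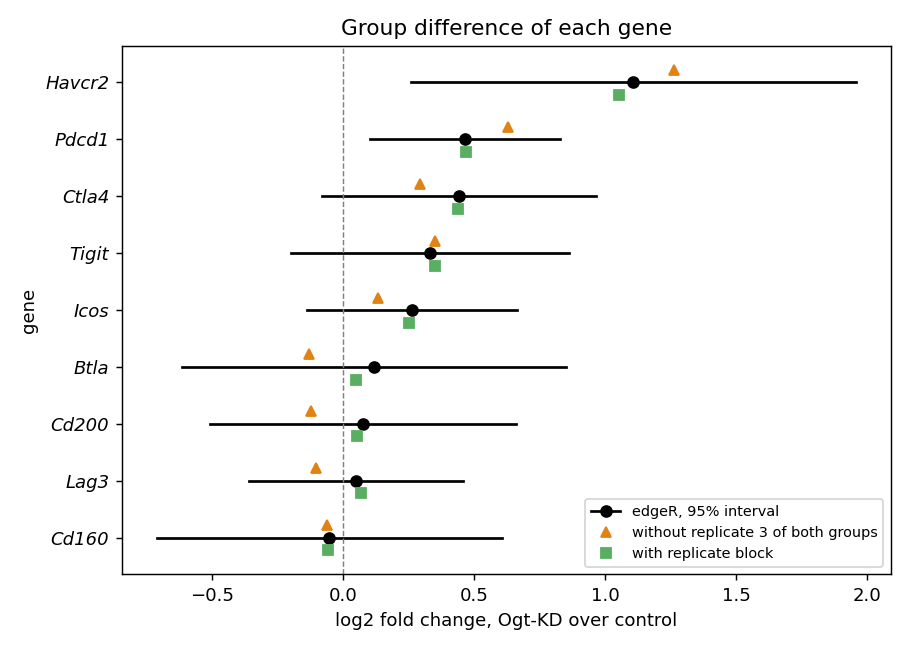
Fold change between Ogt-KD and control libraries (log2, Ogt-KD over control) for the 9 genes (black circle, bar for the 95% interval of edgeR), without replicate 3 of both groups (orange triangle) and with the replicate number as a block (green square). The intervals of Havcr2 and Pdcd1 lie above 0, and the triangles of Btla, Cd200 and Lag3 lie on the other side of 0 from the circles.

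Btla, Cd200 and Cd160 varied between replicates more than between groups. BTLA is an inhibitory receptor for the ligand HVEM, which CD160 also binds. Btla had 194.5, 162.3 and 363.1 CPM in Ogt-KD replicates 1, 2 and 3, against 181.7, 208.7 and 273.1 CPM in the controls. Replicate 3 was the highest library of either group, and Ogt-KD replicate 2 the lowest of all. Its log2 fold change was 0.12 (SE 0.31, 95% limits -0.62 and 0.85, edgeR adjusted p = 0.981), and -0.31 without Ogt-KD replicate 3. Cd200 had 25.3, 22.3 and 39.7 CPM in Ogt-KD and 21.4, 30.2 and 31.1 CPM in control replicates, with replicate 3 again highest in each group (log2 fold change 0.08, SE 0.25, 95% limits -0.51 and 0.66, edgeR adjusted p = 0.983). Cd160 had 10.7, 10.2 and 16.9 CPM in Ogt-KD and 11.6, 10.2 and 17.6 CPM in control replicates. It was the 1 member with a fold change below 0, at -0.05 (SE 0.28, 95% limits -0.71 and 0.61, edgeR adjusted p = 0.988).

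Replicate 3 of each group, the highest in Btla, Cd200 and Cd160, was also the highest in the sum of macrophage and monocyte markers. The 10 listed markers summed to 896.8, 1005 and 3672 CPM in Ogt-KD replicates 1, 2 and 3, against 1763, 1811 and 4053 CPM in the controls. Between the groups 8 of these markers were below 0 and 0 passed (median -0.50 on the log2 scale). Ogt-KD replicate 3 lay above control replicate 3 in Btla and Cd200, but below it in Cd160 and in the sum of these markers. The 6 follicular helper markers could accompany Pdcd1, Icos, Btla and Cd200. They summed to 309.1, 228.6 and 338.8 CPM in Ogt-KD and 238.3, 275.3 and 325.6 CPM in control replicates, with overlap and 0 passed. This sum was also highest in replicate 3 of each group. Within each group it ordered the libraries as Btla and Cd200 did, though the listed genes did not all follow that order. B cell markers, which could accompany Btla and Cd200, summed to 137.9, 105.8 and 109.0 CPM in Ogt-KD and 84.3, 120.4 and 89.8 CPM in control replicates, and were not highest in replicate 3. The 9 markers of CD8 T and NK cells, which could accompany Cd160, summed to 96.3, 87.5 and 76.0 CPM in Ogt-KD and 93.1, 84.6 and 79.6 CPM in control replicates, lowest in replicate 3 of each group. Gzma and Prf1 made up much of this sum, and the NK cell marker Klrb1c was instead highest in replicate 3 of each group, with 6.42, 5.17 and 12.9 CPM in Ogt-KD and 6.35, 5.36 and 10.3 CPM in control replicates. Klrk1 was highest in Ogt-KD replicate 3 (9.91 CPM) but lowest in control replicate 3 (6.20 CPM). Cd8a and Eomes were lowest in replicate 3 of each group. Cd8a had 3.43, 4.56 and 1.88 CPM in Ogt-KD and 2.88, 4.35 and 1.46 CPM in control replicates. The part of other cells in the replicate differences was not tested.

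**Figure D3:**
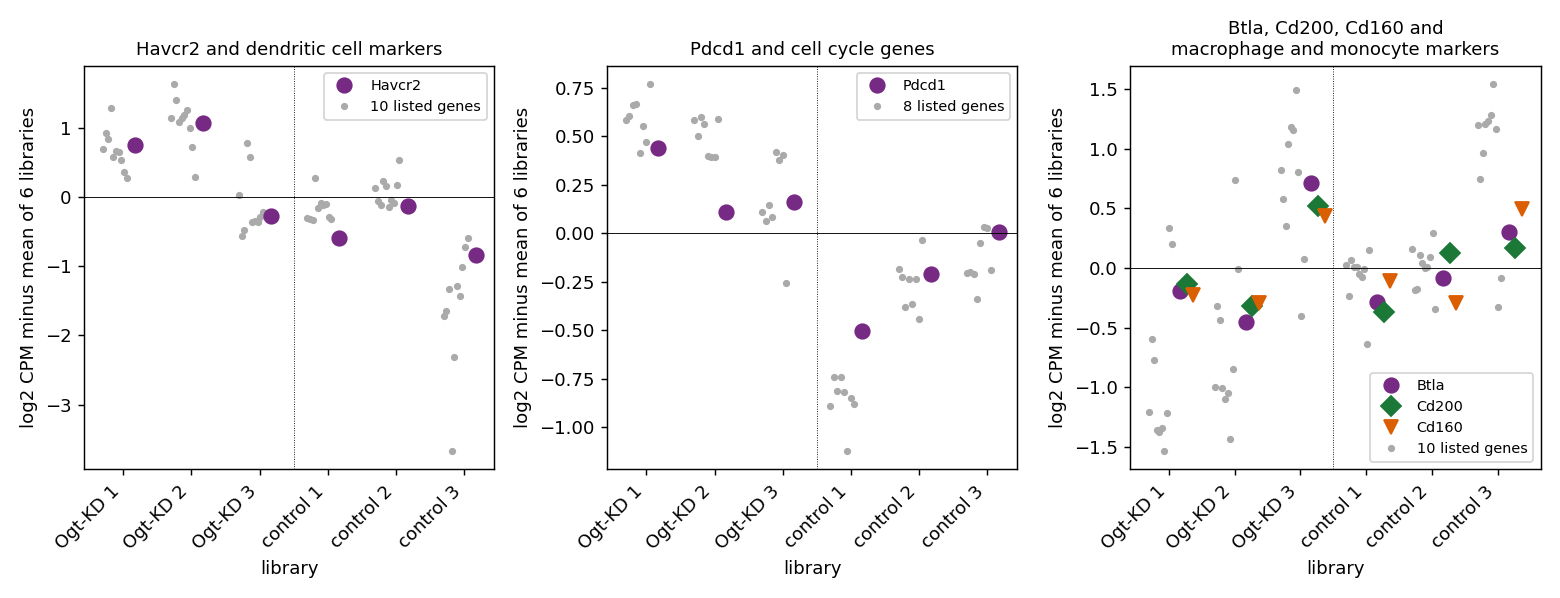
Log2 CPM of each gene minus its mean over the 6 libraries, for Havcr2 with 10 dendritic cell markers, Pdcd1 with 8 cell cycle genes, and Btla, Cd200 and Cd160 with 10 macrophage and monocyte markers (grey points, 1 per listed gene). Havcr2 and 8 of the 10 dendritic cell markers (not Clec9a and Siglech) are highest in Ogt-KD replicates 1 and 2, and Btla, Cd200, Cd160 and most macrophage markers (not Ly6c2 and Lyz2) are highest in replicate 3 of each group.

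Lag3, a receptor for MHC class II that lies beside Cd4 on chromosome 6, did not differ detectably. It had 42.1, 48.4 and 51.4 CPM in Ogt-KD replicates 1, 2 and 3, against 38.9, 58.2 and 40.0 CPM in the controls. Control replicate 2 was the highest and control replicate 1 the lowest library, so the control values enclosed those of the Ogt-KD libraries. The log2 fold change was 0.05 (SE 0.17, 95% limits -0.36 and 0.46, edgeR adjusted p = 0.983). The interval covers folds from 0.779 to 1.37, and the ratio of Lag3 to its neighbour Cd4 was 0.057 ± 0.012 in Ogt-KD and 0.055 ± 0.011 in control libraries (SD, n = 3 each).

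Levels were compared between genes per kilobase of deposited gene length (RPKM). Ctla4 was the highest at 96.9 ± 24.1 RPKM in Ogt-KD and 71.3 ± 15.2 RPKM in control libraries (SD, n = 3 each). Tigit followed with 85.7 and 68.2 RPKM in Ogt-KD and control libraries, then Btla with 70.7 and 65.1 RPKM, and Icos with 65.8 and 54.9 RPKM. Each of these 4 overlapped its neighbour in the order in both groups. A gap separated them from Pdcd1, at 31.3 ± 3.96 RPKM in Ogt-KD and 22.7 ± 3.98 RPKM in control libraries. Pdcd1 did not overlap Lag3 (22.4 ± 2.26 RPKM) in Ogt-KD libraries, whereas in control libraries it overlapped Lag3 (21.7 ± 5.12 RPKM). Cd200 had 8.75 and 8.31 RPKM and Cd160 had 4.77 and 4.97 RPKM in Ogt-KD and control libraries. Havcr2 stood above Cd160 in the mean of Ogt-KD libraries (5.77 ± 2.45 RPKM), where the ranges overlapped, and below it in control libraries (2.66 ± 0.682 RPKM), where they did not.

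**Figure D4:**
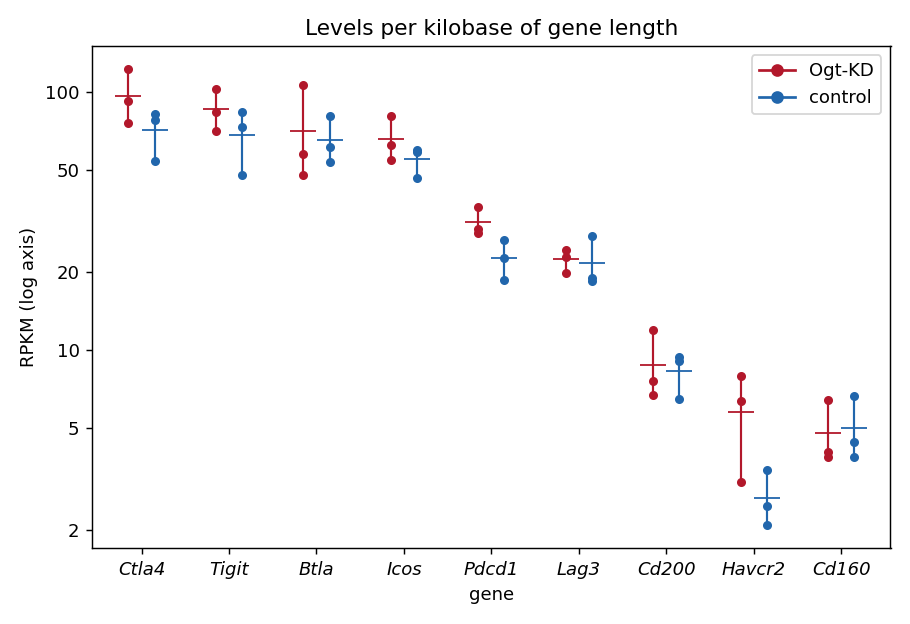
RPKM on a log axis for each gene in Ogt-KD (red) and control (blue) libraries, with points for libraries, a dash for the mean and a line from the lowest to the highest. Ctla4, Tigit, Btla and Icos form an upper group at 46.4 RPKM or more, and Havcr2 is the lowest gene in control libraries.

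Between the highest and the lowest library, Havcr2 spanned a ratio of 3.78, Ctla4 2.28, Btla 2.24 and Tigit 2.15. Pdcd1, Cd200, Icos, Cd160 and Lag3 spanned less, from 1.92 for Pdcd1 down to 1.49 for Lag3. The 9 genes summed to 825.5, 785.3 and 1194 CPM in Ogt-KD replicates 1, 2 and 3, against 625.3, 824.5 and 877.0 CPM in the controls. The highest sum was that of Ogt-KD replicate 3 and the lowest that of control replicate 1, and the groups overlapped. Control replicate 1 was the lowest library for Pdcd1, Ctla4, Tigit, Icos, Cd200 and Lag3.

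Ligands and partners of the receptors were examined as lists. Of 13 tested ligand genes 9 lay above 0 and 0 passed (median 0.09 on the log2 scale). Cd80, a ligand of CD28 and CTLA-4 on antigen-presenting cells, had 11.6, 16.1 and 12.2 CPM in Ogt-KD and 8.68, 9.91 and 9.58 CPM in control replicates (log2 fold change 0.50, SE 0.17, edgeR adjusted p = 0.594). Pdcd1lg2, a ligand of PD-1, had a log2 fold change of 0.67 (SE 0.30). Pvr, the ligand shared by TIGIT and CD226, had 45.4, 44.7 and 36.4 CPM in Ogt-KD and 53.3, 55.1 and 47.8 CPM in control replicates (log2 fold change -0.31, SE 0.12, edgeR adjusted p = 0.624). Nectin2, another TIGIT ligand, had -0.36 (SE 0.63) at under 3 CPM in each library. Both Cd80 and Pvr had groups that did not overlap, in opposite directions. Of the 13 ligand genes 1 was higher and 1 lower in this way, beside 7.43% and 5.88% of all tested genes. Both were named for a small p, which favours such a separation.

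Of 10 activating partners 6 lay above 0, with a median of 0.08, and 0 passed, against 1, Tnfrsf4, with the replicate block. Tnfrsf4 and Tnfrsf9, which encode the costimulatory receptors OX40 and 4-1BB, had log2 fold changes of 0.76 (SE 0.12) and 0.78 (SE 0.17), each with edgeR adjusted p values above the threshold (0.480 and 0.496). Cd40lg and Cd27 had -0.10 each (SE 0.11 and 0.12). Cd28, which competes with CTLA-4 for its ligands, had 273.9, 238.5 and 246.6 CPM in Ogt-KD and 244.5, 274.6 and 231.2 CPM in control replicates (log2 fold change 0.02, SE 0.11). The ratio of Ctla4 to Cd28 reads was thus 0.643, 0.898 and 1.16 in Ogt-KD and 0.515, 0.699 and 0.782 in control replicates, and the groups overlapped.

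Of 15 other inhibitory receptor genes 9 lay above 0 and 0 passed, with a median of 0.13. Klrg1, an inhibitory receptor of antigen-experienced lymphocytes, had 24.0, 39.3 and 42.6 CPM in Ogt-KD replicates 1, 2 and 3, against 16.99, 13.7 and 5.86 CPM in the controls. All Ogt-KD values lay above all control values (log2 fold change 1.53, SE 0.39, edgeR adjusted p = 0.526). Cd101 had a log2 fold change of 0.51 (SE 0.14) with no overlap either. Ly9 and Vsir, the gene for the checkpoint receptor VISTA, had -0.16 (SE 0.08) and -0.18 (SE 0.09), each lower in every Ogt-KD library. Of the 15 genes 3 were higher and 2 lower without overlap, beside 7.43% and 5.88% of all tested genes. The genes named here were picked for a small p, which favours such a separation.

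Of 22 genes that signal below the receptors, among them phosphatases and kinases, 12 lay above 0 and 0 passed, with a median of 0.01. Ptpn6 and Ptpn11, the phosphatases SHP-1 and SHP-2 that PD-1 and BTLA recruit, had log2 fold changes of -0.18 (SE 0.15) and 0.06 (SE 0.11). Dok1, an adaptor that restrains signalling, had 0.26 (SE 0.10) and Cblb, a ubiquitin ligase that does so, 0.12 (SE 0.12). Pik3r1, a regulatory subunit of phosphoinositide 3-kinase, had -0.28 (SE 0.11) and the kinase gene Lck -0.27 (SE 0.12). Of 25 regulators of checkpoint genes 19 lay above 0 and 0 passed, with a median of 0.20, against Foxp3 and Ikzf2 with the replicate block. Prdm1, which encodes the repressor Blimp-1, had 30.9, 30.9 and 24.2 CPM in Ogt-KD and 15.9, 20.02 and 17.35 CPM in control replicates (log2 fold change 0.69, SE 0.15, edgeR adjusted p = 0.482). Ikzf2, the gene for Helios, had 0.69 (SE 0.15), and Tcf7 and Foxo1, factors of naive and memory T cells, had -0.25 (SE 0.12) and -0.24 (SE 0.15).

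The genes whose profile over the 6 libraries was most like that of each member were found by the mean absolute difference of log2 CPM, after each gene was centred on its mean. There were 10826 candidates. The closest to Pdcd1 were Plk4, a kinase of centriole duplication (0.055), Gins2, a part of the replicative helicase (0.069), and Pear1 (0.070). The closest to Havcr2 were Slamf7 (0.107), Napsa (0.109) and Neurl1b (0.116), each highest in Ogt-KD replicates 1 and 2. Those closest to Ctla4 were Vill (0.075), Asah2 (0.076) and Aifm2 (0.083), and those closest to Icos were Serinc5 (0.036), Atf6 (0.048) and the B cell gene Cd79b (0.058). Tigit was closest to Sytl3 (0.075), Cd79b (0.080) and Fbxo44 (0.084). Btla was closest to Capn3 (0.078), Colgalt1 (0.081) and Sdcbp2 (0.084), Cd200 to Wfikkn2, Aldh5a1 and Pnpla2, Cd160 to Akr1e1, Mospd2 and Ogfod3, and Lag3 to Kif5c, Vangl2 and Nab2. With 6 libraries and so many candidates close profiles occur for any gene, and the values are a description.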

How the data were processed

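Read counts came from 1 table of 54532 Ensembl genes for 6 libraries. The counts were deposited as whole numbers per gene, not normalised. Bowtie2 2.0.6, TopHat2 2.0.9 and build mm9 are listed in the submitters' processing notes, and no source used here gives the counting tool or strand setting. The authors' FPKM and the gene length in bases are deposited beside them; FPKM equals the count per base of that length times 1 constant per library and was used for that check only, per the file headers. The authors' mean normalised signal, log2 fold change and p-value columns were read only for comparison in the closing section. Of the gene identifiers, 54409 matched GENCODE M21 and 53499 had identical coordinates, so positions are given on GRCm38 although the notes list mm9.

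The whole table was fitted with the edgeR 4.0.16 quasi-likelihood test (R 4.3.3, TMM, filterByExpr, group term, Benjamini-Hochberg over 16075 genes, threshold 0.05). Alternatives used DESeq2 1.42.0, limma 3.58.1, RLE factors, no filter, T cell gene scaling, the replicate block and fewer libraries. RPKM are TMM-scaled counts per deposited length. Exact permutation tests used SciPy 1.17.1. After group means were removed, same-numbered Ogt-KD and control libraries correlated across genes at 0.109, 0.346 and 0.523. All were above 0.1, the limit used to read the block as pairing, which the labels do not state. The main fit, with its SEs, limits and p values, and the permutation tests did not pair the libraries. Pairing entered only as the replicate block, an alternative run. Ogt-KD replicate 1 correlated more with control replicate 2 (0.267) than with its own number. The genes and lists were chosen with earlier results of these data known. Named genes are Ogt, all members, the 3 genes closest to each in profile and, for each list, up to 2 genes in each direction with the smallest p. Others given values (Cd28, Ptpn6, Ptpn11, Cd4, Foxp3, Klrb1c, Klrk1 and Cd8a) were chosen after their values were seen. Cd3d, Cd3g, Cd226, Trac and Cd2 serve as denominators or markers. Promoters are from RefSeq (GRCm38.p6, 7 of 9 members matched). A planned search of protein motifs was not run.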

Additional observations from a re-analysis of the deposited data

How the results depend on the processing

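The count of checkpoint genes past the threshold was 0 under every alternative run, and the count of members whose groups do not overlap was 1 (Pdcd1) under TMM, RLE, T cell gene scaling and no TMM factor. The count over all genes was 1 in edgeR, and 111 with DESeq2, 4 with no filter on low counts, 47 with the replicate block and 35 without replicate 3 of both groups. Leaving out 1 library gave from 1 to 2 genes. The replicate block brought Ctla4 to an adjusted p of 0.152 and Havcr2 to 0.0757, Pdcd1 had 0.267 with it, and it changed no call of a member. With each library left out in turn, log2 fold changes of Havcr2 ran from 0.81 to 1.41, those of Pdcd1 from 0.34 to 0.57, Ctla4 from 0.23 to 0.59, Tigit from 0.13 to 0.48 and Icos from 0.09 to 0.38, none reversed. The ranges for the members below were -0.31 to 0.33 for Btla, -0.22 to 0.24 for Cd200, -0.057 to 0.26 for Lag3 and -0.33 to 0.19 for Cd160.

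Signs reversed for 4 members whose values lie near 0. Leaving out Ogt-KD replicate 3 gave log2 fold changes of -0.31 for Btla, -0.22 for Cd200 and -0.018 for Lag3, and without control replicate 1 it was -0.0057, -0.078 and -0.056. Without replicate 3 of both groups it was -0.13 for Btla, -0.12 for Cd200 and -0.10 for Lag3. Lag3 had -0.057 without control replicate 3. Cd160 had 0.06 without Ogt-KD replicate 1, 0.08 without Ogt-KD replicate 2 and 0.19 without control replicate 3, and its ratio to Trac, Cd2 and Cd5 differed by -0.036 in place of 0.003. The cause was not tested. In the authors' deposited table the adjusted p was 0.132 for Havcr2 and 0.403 for Pdcd1, and the other 7 had values from 0.761 upward. Reads of annotated overlapping genes are low beside the members: Rpl18-ps1 (in Ctla4) reached 2.92 CPM, Gm37039 (in Icos) 6.22 CPM and Pdzk1 (across Cd160) 0.539 CPM. Gene-level counts do not separate isoforms, and 3 libraries a group leave wide intervals for Havcr2, Btla and Cd160.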

Other observations

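The balance between members that are neighbours in the genome, or that have related roles, was measured as the ratio of their reads. The ratio of Ctla4 to Icos reads, whose genes are 62.1 kb apart on chromosome 1, was 0.825, 1.15 and 1.04 in Ogt-KD replicates 1, 2 and 3, against 0.791, 0.936 and 0.902 in the controls (exact two-sided permutation test, p = 0.30). Btla and Cd200 are neighbours 124 kb apart on chromosome 16 on opposite strands. Their ratio was 8.05 ± 0.977 in Ogt-KD and 8.05 ± 1.01 in control libraries (SD, n = 3 each). By library it was 7.70, 7.29 and 9.15 in Ogt-KD and 8.48, 6.90 and 8.77 in control replicates. Each gene alone varied between libraries by a ratio of 2.24 and 1.85. The mean absolute difference of centred log2 CPM was 0.136 for Btla and Cd200 and 0.154 for Ctla4 and Icos. It was smaller for Tigit and Icos (0.111) and for Cd200 and Icos (0.132), which lie on different chromosomes. A close balance was thus not particular to neighbours. The ratio of Tigit to Cd226, receptors for the same ligand, was 1.90, 1.65 and 2.02 in Ogt-KD and 0.824, 1.91 and 1.71 in control replicates, with control replicate 1 apart from the other libraries (exact permutation p = 0.50). The ratio of Havcr2 to Lag3 was 0.409, 0.444 and 0.163 in Ogt-KD replicates, against 0.174, 0.160 and 0.142 in the controls, so Ogt-KD replicate 3 lay among the controls (exact permutation p = 0.20). These 4 ratios are from 8 that were computed, all with overlapping groups, and the p values are not adjusted over them.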
